A study of Homo sapiens with 4 samples.

Results

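The tall PABPC4 peaks were the 536 positions, of 63507 in the PABPC4 list, at which 500 or more tags piled up off chromosome M. They were chosen by their height, which is therefore described here and not tested. Their heights ranged from 500 to 10197 tags with a median of 778, against a median of 38 tags over the 62964 remaining peaks off chromosome M. They were 0.844% of the positions off chromosome M and held 16% of the summed heights, and they lay in 484 genes. The 7 peaks of chromosome M all reached 500 tags and were left out by the rule.

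The data came from MDA-MB-231, an established human breast cancer line of mesenchymal character grown in culture, and the labels name no targeted gene and no drug. PABPC4 was assayed in 2 samples by PAPERCLIP, in which ultraviolet light (400 mJ per square centimetre at 254 nm) bonds RNA to protein, an antibody recovers PABPC4, and reverse transcription of the bound RNA is primed at poly(A). A further 2 samples of the same line held HNRNPC, another RNA-binding protein, recovered by irCLIP after the same dose of light. The tags of both PABPC4 samples were pooled into 1 list, so a height is the number of pooled tags at the highest point of a peak, not scaled to depth, which leaves no replicate spread to set a difference against. The height of a peak depends on how much of an mRNA a cell holds and on how much of it PABPC4 binds, and these cannot be told apart here.

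PABPC4 is a cytoplasmic poly(A)-binding protein, a relative of the more abundant PABPC1, and coats the tail of adenosines at the 3′ end of mRNAs, where such proteins favour translation and mRNA stability. Most mRNAs are cut a short way after a poly(A) signal, usually AAUAAA or its variant AUUAAA, and the tail is added at the cut. A primer that pairs with poly(A) can also pair with adenosines encoded in the genome, and for that reason the genomic sequence after each peak was examined for A-rich stretches. An A-rich stretch here means 6 A in a row, or 7 A in 10 nucleotides (nt), within 50 nt after the peak.

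The last 30 nt of the tallest 3′ UTR peaks are shown because they carry the feature that marked most of the set, a poly(A) signal shortly before the peak ended. Sequences are from hg38, 5′ to 3′, with AAUAAA or AUUAAA in capitals.
VIM (chr10:17237566-17237595, plus strand): cugcuucAAUAAAucuuuggaaaaacucuu
GAPDH (chr12:6538344-6538373, plus strand): caucAAUAAAguacccugugcucaaccagu
HMGA1 (chr6:34246204-34246233, plus strand): uugAAUAAAaaaaauauccuuuucuggacu
ACTN4 (chr19:38730165-38730194, plus strand): uaaaaaagaaagaAUUAAAaacuuucagag
TMSB10 (chr2:84906646-84906675, plus strand): augaaAAUAAAacacaccucguggcauggc
RPS21 (chr20:62388492-62388521, plus strand): auuugucauaAAUAAAuaaugaaaaccuac
MYL6 (chr12:56161551-56161580, plus strand): caccaAAUAAAcuugcucucugggcccucg
RPS29 (chr14:49583570-49583599, minus strand): uaaAAUAAAcauuugaaaaaacccuucagu
FTL (chr19:48966852-48966881, plus strand): ccaaauggaAAUAAAgcuuuuugaugcagc
ARHGDIA (chr17:81867716-81867745, minus strand): ccgggaAAUAAAugccccugaaggagcugg
Another pair shows AUUAAA, and 3 tall peaks without either hexamer show the exceptions.
TMBIM6 (chr12:49764701-49764730, plus strand): acaagauAUUAAAaaaaaaaaagaaagaaa
RPL23 (chr17:38850070-38850099, minus strand): aaacuaaacccAUUAAAaaguauuuguuug
TUBA1B (chr12:49127781-49127810, minus strand): aucucaaaguaaagucauuaacaucaaaag
IGFBP4 (chr17:40457699-40457728, plus strand): aaacagaacaaaaccaaaaaauguccagau
CAV1 (chr7:116559606-116559635, plus strand): cugaggaggaaaaaaaaaaaaaagaaaaga

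The tallest peak of the list was at the 3′ end of VIM, which encodes the intermediate filament protein vimentin, with 10197 tags over 237 nt. GAPDH, a glycolytic enzyme, followed with 7950 tags, and HMGA1, a DNA-binding chromatin protein, with 7753. These peaks ended 2 nt past, 1 nt before and 2 nt past an annotated transcript end, respectively (a position before an end is written as a negative offset, here -1). The calcium-binding protein S100A6 had 6673 tags and the actin cross-linker ACTN4 had 6570. The thymosin TMSB10 (6248 tags), the tubulin TUBA1B (6245), the ribosomal protein gene RPS21 (5493), the myosin light chain MYL6 (4824), the ribosomal protein gene RPS29 (4546), the ferritin light chain FTL (4357), the ribosomal protein gene RPLP1 (4293) and ARHGDIA (4251) each had their tallest peak within 7 nt of an annotated end. Of the 15 genes with the tallest peaks, HSP90AA1 (6335 tags) had its tallest peak in the coding sequence, 120 nt from the nearest annotated end, and MALAT1 (6176 tags) was the non-coding RNA among them. In all, 190 peaks reached 1000 tags, 65 reached 2000 and 10 reached 5000. At the limit itself, MLEC, CBX6 and ANTXR2 lay just inside with 500 tags each, and UPF2 (499 tags), TSPO (499) and YIF1A (498) lay just outside.

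Most tall peaks lay in 3′ UTRs. A peak was placed by its centre on its own strand, and 461 of 536 (86.0%, 95% Wilson interval 82.8 to 88.7) fell in a 3′ UTR, against 18456 of 62964 remaining peaks (29.3%, 29.0 to 29.7). The difference was 56.7 percentage points (95% interval 53.5 to 59.4, two-sided Fisher's exact test, Benjamini-Hochberg adjusted p = 1.25e-162 over 8 tests). Peaks are not replicates, so these intervals and p-values cover counting error within 1 pooled list. The centre and end of a peak were set by the same tags as its height. The part of this in the differences given here and below was not tested. Introns held 8 tall peaks (1.49%) but 38242 of the remaining ones (60.7%). Read the other way, 2.44% of all 3′ UTR peaks were tall, 1.44% of coding peaks and 0.0209% of intronic peaks. Antisense to genes there were 0 tall peaks of 126.

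The tall peaks also ended where annotated transcripts end. The last base of 410 of the 536 (76.5%) was within 25 nt of an annotated transcript 3′ end, against 15.7% of the remaining peaks, a difference of 60.8 points (57.0 to 64.2, Fisher's exact test, adjusted p = 7.24e-211). Among 3′ UTR peaks alone, 375 of 461 (81.3%) did so against 47.3%, a difference of 34.0 points (30.2 to 37.4, Fisher's exact test, adjusted p = 5.65e-50). In 285 tall 3′ UTR peaks (61.8%) the end was within 3 nt of an annotated one, compared with 28.1% of the remaining 3′ UTR peaks. The tallest 3′ UTR peaks over 25 nt from an annotated end were those of ACTN4 (50 nt past), the actin-severing protein gene CFL1 (4213 tags, 35 nt past), the glycolytic enzyme gene TPI1 (1761 tags, an offset of -64 nt), the splicing regulator gene HNRNPA2B1 (1745 tags, an offset of -1447 nt) and the annexin gene ANXA5 (1711 tags, 37 nt past).

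A poly(A) signal was found in the 40 nt up to the peak end for 385 tall peaks (71.8%), against 19% of the remaining peaks. For peaks narrower than 40 nt this window began before the peak. The difference was 52.9 points (48.9 to 56.5, Fisher's exact test, adjusted p = 2.55e-153). Within 3′ UTRs the shares were 77.7% (358 of 461) and 47.9%, 29.8 points apart (25.7 to 33.4, Fisher's exact test, adjusted p = 4.03e-38). AAUAAA accounted for most of that gap. It stood in 317 tall 3′ UTR peaks (68.8%) against 37.4% of the others, whereas AUUAAA without AAUAAA was present in 8.89% and 10.5%. Of the tall 3′ UTR peaks with neither, 62 had another single-base variant of AAUAAA, most often AAGAAA (22 peaks) or AACAAA (13), and 41 had none of the 18 hexamers searched (AAUAAA and its single-base variants except AAAAAA). The 5 tallest 3′ UTR peaks without AAUAAA or AUUAAA belonged to TUBA1B (6245 tags), the growth factor-binding protein gene IGFBP4 (3530), caveolin CAV1 (2714), the lysosomal protease gene CTSD (2682) and the tetraspanin gene CD63 (2528), and all 5 still ended within 3 nt of an annotated end. Among tall 3′ UTR peaks, 84.8% of those at an annotated end and 46.5% of those away from one had a signal. In the remaining 3′ UTR peaks these shares were 73.9% and 24.5%.

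The signal also sat slightly farther from the peak end in tall peaks. Its first base was most often 22 nt before the last base of the peak (position -22, 9.98% of tall 3′ UTR peaks), with quartiles of -26, -23 and -21 nt. In the remaining 3′ UTR peaks the most frequent position was -19 (4.51%), with quartiles of -23, -20 and -17. The quartiles cover the 358 tall and 8833 remaining peaks with a signal. Both percents are of all 3′ UTR peaks, with or without a signal, so they also depend on how many peaks held one. VIM has its signal at position -22 and FTL at -20 in the sequences printed above, RPS29 and HMGA1 at -26. Since the peak's end was set by the same tags as its height, this position is given as a description. The tests of signals, annotated ends and A-rich stretches use that same end and share this limit.

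**Figure D1:**
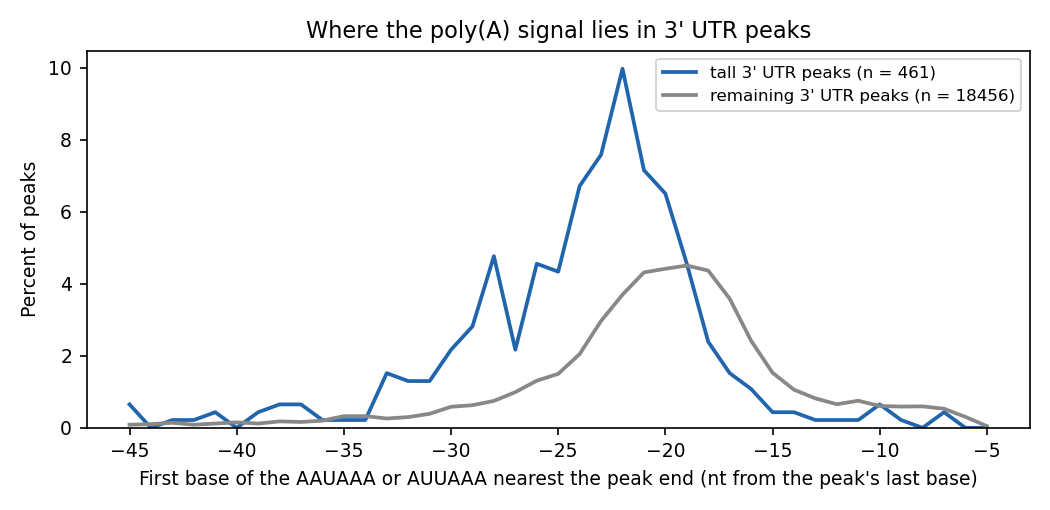
First base of the AAUAAA or AUUAAA nearest the end of the peak (x axis, nt from the last base of the peak) as a percent of tall (blue, n = 461) and remaining (grey, n = 18456) 3′ UTR peaks. The blue line is highest at -22 (9.98%) and the grey line at -19 (4.51%). Peaks without a signal are counted in both percents, so the heights of the lines also depend on how many peaks held one.

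Genomic A-rich sequence was less frequent after tall peaks. It followed 115 of 536 (21.5%, 18.2 to 25.1) against 58.8% of the remaining peaks, a difference of -37.4 points (-40.7 to -33.7, Fisher's exact test, adjusted p = 1.19e-68). In 3′ UTRs it followed 78 of 461 (16.9%) against 32.3%, a difference of -15.4 points (-18.6 to -11.6, Fisher's exact test, adjusted p = 2.17e-13). Tall 3′ UTR peaks at an annotated end had it in 11.2% (42 of 375) and those elsewhere in 41.9% (36 of 86). In the remaining 3′ UTR peaks these shares were 21.2% and 42.3%, so away from annotated ends the shares of tall and remaining peaks were close. The tallest 3′ UTR peaks with an A-rich stretch were those of TMBIM6 (3560 tags), an inhibitor of cell death, RACK1 (3058), a scaffold on the ribosome, RPL38 (2480), a ribosomal protein gene, MT2A (2215), a metallothionein, and PABPC1 (2204), and all 5 ended within 7 nt of an annotated end. The TMBIM6 sequence above is the end of the peak itself, where adenosines follow the AUUAAA directly. The stretch counted here lies after those printed bases.

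Across height classes the 4 shares did not change at 500 tags alone. Below 100 tags they were nearly level, and 3′ UTR peaks were 26.8% of those of 50 to 99 tags, 49.4% of those of 100 to 199, 78.8% of those of 200 to 499 and 87.6% of those of 500 to 999. Above the limit the share with a signal was 69.7%, 74.4% and 78.5% in the classes of 500 to 999, 1000 to 1999 and 2000 or more tags, with overlapping intervals. Ends at an annotated site made up 74.9%, 72.0% and 93.8% of these classes. In the highest class 16.9% of the 65 peaks had their centre in coding sequence.

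**Figure D2:**
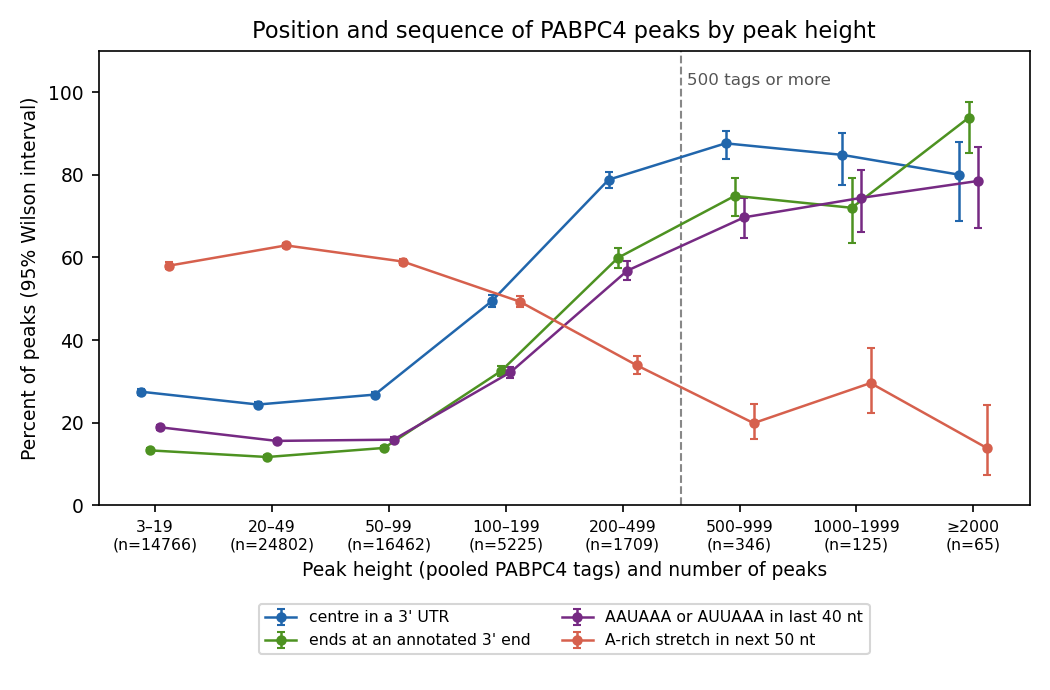
Percent of PABPC4 peaks (y axis, with 95% Wilson intervals) in each class of peak height (x axis, tags). Shown are peaks centred in a 3′ UTR (blue) and peaks ending at an annotated 3′ end (green). Purple marks a poly(A) signal in the 40 nt up to the peak end, and orange an A-rich stretch after the peak. Right of the dashed line are the tall peaks, where the 3′ UTR share is 80% to 87.6% and the A-rich share 13.8% to 29.6%.

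The same contrasts were present when the tall peaks were set against the other peaks of the genes that held them. These 484 genes had 2254 other peaks with a median height of 54.5 tags, of which 25.3% were in 3′ UTRs and 56.3% in introns. Of these other peaks 12% had a signal, 56.3% an A-rich stretch after them and 9.80% an annotated end. The tall peaks exceeded them by 59.8 points for the signal (55.7 to 63.7, Fisher's exact test, unadjusted p = 4.05e-165) and 66.7 points for the annotated end (62.7 to 70.3, p = 1.00e-208), and were 34.8 points below them for the A-rich stretch (interval of the difference -38.7 to -30.6, p = 6.36e-50). This comparison was added after the data had been seen. In 108 genes the tall peak was the sole peak, so these genes entered on the tall side alone. Peaks were pooled over genes and not paired by gene, so the p-values take no account of peaks that share a gene.

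Tall peaks were broad. Their width ran from 29 to 543 nt with a median of 127 nt (quartiles 97.8 and 166), against a median of 47 nt (35 and 48) for the remaining peaks, and 391 of them (72.9%) exceeded 100 nt compared with 1.95%. Reads were 50 nt long, and 8 tall peaks (1.49%) and 52.3% of the remaining ones were 45 to 50 nt wide. The widest were those of MALAT1 (543 nt), ACTN4 (316 nt) and CFL1 (307 nt), and the narrowest those of the co-chaperone gene DNAJA1 (29 nt, 1284 tags), BUD23 (30 nt, 834 tags), a methyltransferase gene of ribosome production, and the matrix-modifying oxidase gene LOXL2 (35 nt, 650 tags). Width and height come from the same tags, so no test was made.

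**Figure D3:**
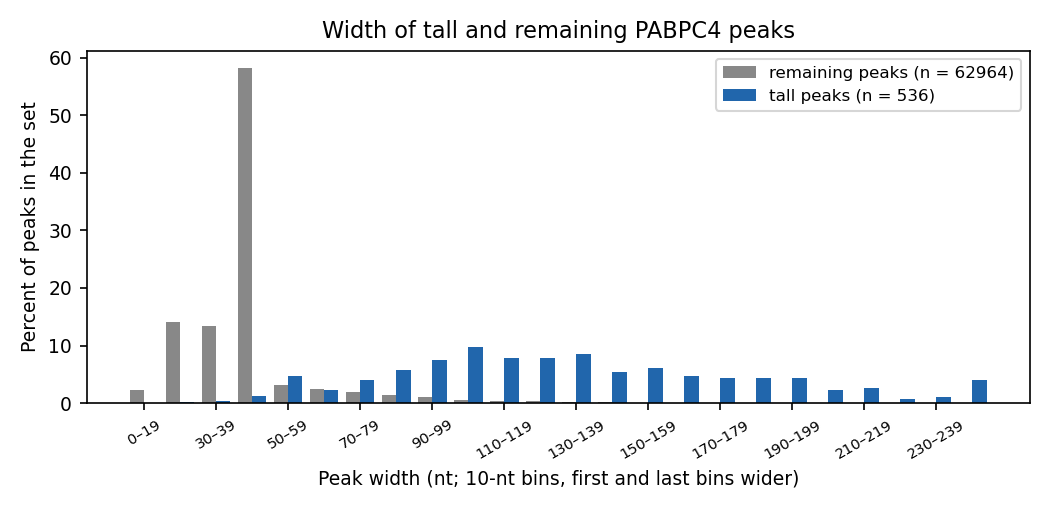
Width of the 62964 remaining peaks (grey) and the 536 tall peaks (blue) in classes of 10 nt (x axis), as a percent of each set (y axis, from 0). The grey bars gather below 50 nt, while the blue bars spread around the median of 127 nt.

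Tall peaks centred in coding sequence numbered 46, and they fell into different kinds. In 22 of them the peak ended at an annotated 3′ end. Among these were S100A6 (6673 tags, 235 nt wide, 6 nt past) and RPLP1 (4293 tags, 118 nt wide, 2 nt past). Counting such peaks, 496 of 536 lay in a 3′ UTR or ended at an annotated end. The other 24 were centred in coding sequence and ended over 25 nt from any annotated 3′ end. Only the centre set the class, so a part of such a peak can lie outside coding sequence. Of these, 22 had an A-rich stretch within the peak or after it, 14 of them after it. By the same measure 372 of the 461 tall 3′ UTR peaks had one, 78 of them after the peak. HSP90AA1, a cytosolic chaperone, had 3 tall peaks centred in its coding sequence (6335, 2884 and 1571 tags). Each of the first 2 was higher than the peak at the gene's 3′ UTR end (1800 tags). NUCKS1, a nuclear DNA-binding protein, had coding peaks of 1564 and 1528 tags beside 3′ UTR peaks of 1045 and 619. Others were centred in the coding sequence of RPS4X (1884 tags), H4C3 (1607), EEF1G (1495, an offset of -48 nt) and TOP2A (1450 and 613). H4C3 encodes a replication-dependent histone, a class whose mRNAs usually end in a stem-loop without a poly(A) tail, and the peak ended 38 nt before the annotated end, an offset of -38.

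In all, 40 tall peaks lay neither in a 3′ UTR nor at an annotated end, and 6 of them held a poly(A) signal. Of these 40, 35 (87.5%, 73.9 to 94.5) had an A-rich stretch inside or after the peak and 23 (57.5%, 42.2 to 71.5) after it, against 79.7% and 70.1% of the 43371 remaining peaks so placed. A broad peak has more room for such a stretch, so the first pair of shares is not on equal terms. A stretch inside or after the peak was also frequent in tall 3′ UTR peaks (372 of 461). The most adenosine-rich 30 nt of 5 of these peaks, or of the 50 nt after them, are shown with runs of 3 or more A in capitals.
HSP90AA1 (chr14:102084912-102084941, minus strand, coding peak): AAAgaagaagAAAAAgAAAAAgaagagAAA
H4C3 (chr6:26104281-26104310, plus strand, coding peak): ugagaacuucAAAAAAcAAAAAcAAAAAAA
TOP2A (chr17:40396279-40396308, minus strand, coding peak): AAAAgAAAAAuAAAAAgAAAAuuaagguaa
PABPC4 (chr1:39576708-39576737, minus strand, 5′ UTR): gaggAAAAAAAgagAAAAAgauAAAAAAAA
NEAT1 (chr11:65440460-65440489, plus strand, non-coding exon): cAAAAAAAAAcAAAAAcgacAAAAAAAAAA
The HSP90AA1 stretch holds 23 A in 30 nt and the H4C3 stretch 21. The EEF1G peak (1495 tags) and the PTMA peak (556 tags) had no such stretch in or after them, and neither did those of RBMX (707 tags), BCL2L1 (705) and KIF6 (636).

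The 5′ UTR held 4 tall peaks, and the tallest belonged to the cytoplasmic poly(A)-binding proteins themselves. PABPC1 had 1477 tags in its 5′ UTR, beside 2204 and 900 tags in its 3′ UTR. PABPC4 had 1216 tags in its 5′ UTR and 1155 tags at its 3′ UTR end. Both 5′ UTR peaks were followed by an A-rich stretch, and the PABPC4 stretch printed above holds 23 A in 30 nt. The others were in the histone methyltransferase gene NSD2 (795 tags, 2 nt past an annotated end) and in RBMX. The peak in NSD2 was listed under 2 gene IDs. Annotated ends were those of any transcript on the strand, so this end need not be one of NSD2.

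Non-coding exons held 16 tall peaks, 12 of them at an annotated end. MALAT1, a nuclear long non-coding RNA, had peaks of 6176, 1641 and 1485 tags, and its tallest ended 7 nt past an annotated end without AAUAAA or AUUAAA. SNHG5, a host of small nucleolar RNAs, had 3096 tags in a peak that the list gives under the small nucleolar RNA SNORD50A, with an expected height of 1715 tags, and 571 tags in another. SNHG29 had 1401, and NEAT1, which scaffolds nuclear paraspeckles, had 706, 697 and 518. The 8 intronic peaks were led by 1 listed under ANAPC7 (1862 tags), in the intron of an overlapping non-coding gene, by MIR100HG (797) and by the cell-death regulator BCL2L1 (705). The chromatin gene HMGA2 had 3 intronic tall peaks (602, 560 and 533 tags). The intergenic tall peak (630 tags) was listed under LOC102724652.

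Most genes had a single tall peak. Of the 484 genes, 441 had 1, 36 had 2, 5 had 3 and 2 had 4. HSP90AA1 and NUCKS1 had 4, and MALAT1, PABPC1, RPL15, NEAT1 and HMGA2 had 3. Those of RPL15, a ribosomal protein gene, were all in the 3′ UTR with AAUAAA (1325, 870 and 612 tags).

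Use of a single 3′ end was followed in the 431 protein-coding genes with a tall 3′ UTR peak, as the share of the gene's summed 3′ UTR heights that stood in its tallest peak. The median share was 96.8% (quartiles 80.6 and 100), and 276 genes (64.0%, 59.4 to 68.4) had 90% or more in 1 peak. In 191 genes (44.3%) there was a single 3′ UTR peak. Among the other 9138 genes with a 3′ UTR peak, 52.1% had 90% or more in 1 peak. Their median share was 100% (quartiles 61.2 and 100) and 4573, or 50%, had a single peak, both above the values of the tall genes. Their median tallest height was 67.0 tags. In the 4386 of them with the taller peaks (median 133 tags) the order was reversed. There the median share was 81.7%, 37.7% had a single peak and 41.9% had 90% or more in 1 peak. Among genes with 2 or more 3′ UTR peaks, 85 of 240 tall genes (35.4%, median share 84.0%) and 186 of 4565 others (4.07%, median 61.1%) reached 90%. A gene chosen for a tall peak has a large share in that peak by construction, so these values carry no test. A part of the measure that heights did not enter, the number of annotated 3′ ends, did not differ detectably. At least 2 ends were annotated for 295 of the 431 genes (68.4%) and for 66.7% of the others, a difference of 1.70 points (-2.93 to 6.02, Fisher's exact test, adjusted p = 0.496). The 3′ UTRs of the tall genes had a median length of 751 nt and those of the others 1467 nt.

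HMGA1 (7753 tags), TMSB10 (6248), TUBA1B (6245), MYL6 (4824) and ARHGDIA (4251) had all their 3′ UTR tags in 1 peak, MYL6 with 6 annotated 3′ ends and ARHGDIA with 5. VIM had 92.5% in its tallest peak and GAPDH 97.7%. At the other extreme were the genes with the smallest share in their tallest 3′ UTR peak. The lowest were the transcription factor genes ZBTB7A (29.8%, 11 peaks) and NFIC (31.0%, 5 peaks) and the complement inhibitor CD59 (35.6%, 8 peaks). The adaptor protein gene YWHAB (38.4%, 9 peaks) and the protease inhibitor TIMP3 (38.8%, 6 peaks) followed. The share was below 50% in 27 genes (6.26%).

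**Figure D4:**
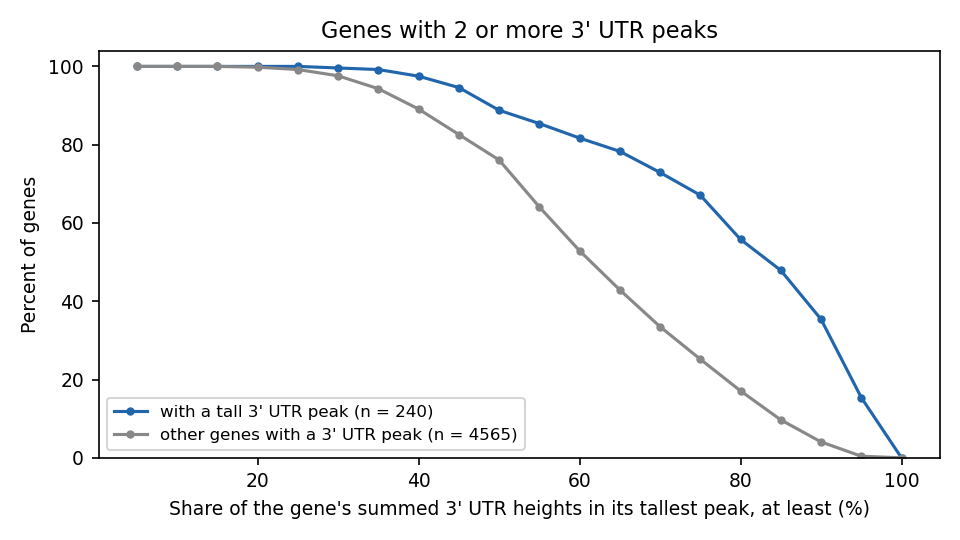
Genes with 2 or more 3′ UTR peaks, by the share of their summed 3′ UTR heights in the tallest peak (x axis, at least this percent) and the percent of genes that reach it (y axis). Genes with a tall 3′ UTR peak (blue, n = 240) lie above the others (grey, n = 4565), with 35.4% and 4.07% at a share of 90%.

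The genes with tall peaks were grouped by what their products do. Over all 13102 genes with a peak, 483 (3.69%) had a tall one (the intergenic tall peak, counted above under the symbol of the list as the last of the 484, has no annotated gene), with a median tallest height of 76.0 tags. Since height chose the members, the counts below describe the set. Cytosolic ribosomal proteins made up the largest list, with 53 of the 80 genes that had a peak, a median tallest height of 1383 tags and 57 tall peaks that held 18.8% of the summed tall heights. RPS21 (5493 tags), RPS29 (4546), RPLP1 (4293) and RPLP0 (3900) led it. This list was drawn up by gene symbol, so it also holds genes of similar name such as RPL7L1 (740, tall), RPS27L (307) and RPL39L (84). Of the translation factor list 11 of 35 were tall, among them the elongation factors EEF2 (1957) and EEF1G (1495) and the initiation factor relative EIF4G2 (1659). The list is broad and also holds genes that are not translation factors in the strict sense, such as TPT1 (1409). Glycolysis had 10 of 19, led by GAPDH, ENO1 (3480), PKM (1809) and TPI1 (1761), and nuclear-encoded oxidative phosphorylation had 22 of 79, led by the ATP synthase subunits ATP5F1E (2222) and ATP5F1A (1655) and the cytochrome oxidase subunits COX7C (1273) and COX8A (1123).

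Actin filament and focal contact genes had 19 of 35 tall, led by ACTN4, TMSB10, MYL6 and CFL1, with the actin-binding profilin PFN1 (3961) and the actin gene ACTG1 (3678) next. Intermediate filaments and microtubules had 8 of 19, led by VIM, TUBA1B, the lamin gene LMNA (1330) and the keratin gene KRT7 (1028). Mesenchymal and matrix genes had 17 of 35, led by the galectin LGALS1 (2991), CAV1, CD63 and the tetraspanin CD9 (2045), and the S100 and annexin families 9 of 17, led by S100A6, S100A10 (1720), ANXA5 and S100A4 (1345).

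Cytosolic chaperones had 8 of 24 tall (HSP90AA1, HSP90AB1 with 1930, HSPB1 with 1713 and DNAJA1 with 1284), endoplasmic reticulum chaperones 5 of 16 (P4HB with 1589, CALR with 1409, HSP90B1 with 1248 and CANX with 962 led), and proteasome and ubiquitin genes 10 of 40 (PSMB7 and UBB with 1101 each and UBA1 with 967 among them). RNA-binding proteins had 12 of 43, where PABPC1, the nuclear poly(A)-binding protein PABPN1 (2130), HNRNPA2B1 and PCBP2 (1604) led. HMG and chromatin proteins had 10 of 26, led by HMGA1, NUCKS1 and the histone variants H2AZ1 (1144) and H2AJ (1043). Of 21 redox and iron genes 4 were tall, namely FTL, the thioredoxin TXN (1964), GPX4 (751) and PRDX1 (614).

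Of the surface protein list 8 of 16 genes had a peak and 5 were tall, among them BSG (989), CD59 (629) and ATP1B1 (511). Long non-coding RNAs had 5 of 15, led by MALAT1, SNHG5, SNHG29 and NEAT1. Replication-dependent histones had a peak in 5 of 69 genes and a tall one in H4C3, and the next, H2AC14, H4C8 and H3C10, had 39, 35 and 24 tags. The lists overlap in a few genes, and together they held 208 of the 484 tall genes. Of 7 markers of a mesenchymal breast cancer line 6 were tall (VIM, LGALS1, CAV1, ANXA1 with 1323, AXL with 1041 and EGFR with 600), and CD44 had 331 tags. Of 9 luminal markers 7 had a peak and KRT19 was tall (892 tags). ESR1 had 7 tags, 5 others had 56 to 213 tags, and FOXA1 and PGR had no peak. Of 10 markers of other cell types, PECAM1 (24 tags) and GFAP (10) had a peak and the other 8 had none.

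**Figure D5:**
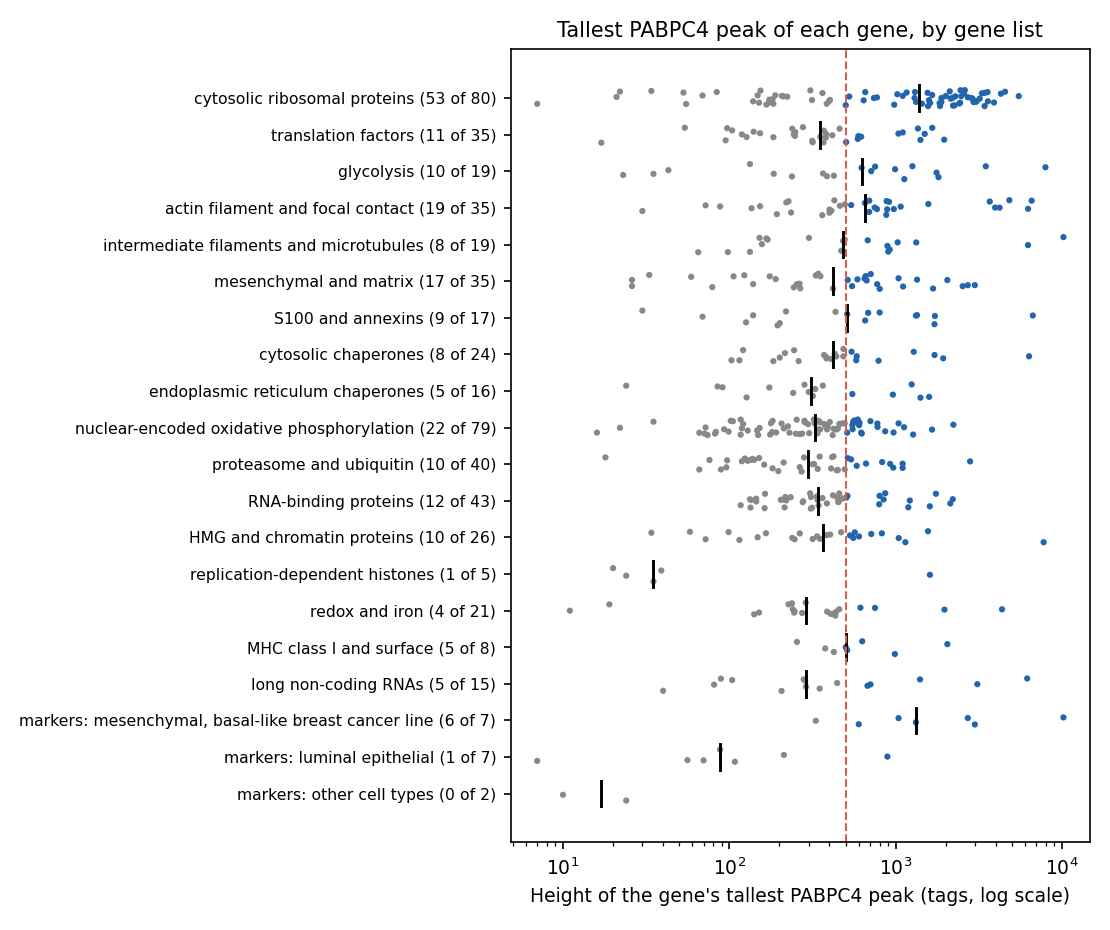
Height of the tallest PABPC4 peak of each gene (x axis, tags, log scale) in 17 gene lists and 3 marker lists (rows, with the number of tall genes of those with a peak). Blue points are at or right of the dashed line at 500 tags, and black bars are list medians, highest among the 17 lists for cytosolic ribosomal proteins (1383 tags).

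A peak of the HNRNPC list overlapped 8 of the 536 (1.49%, 0.758 to 2.92) and 82 of the remaining 62964 (0.130%, 0.105 to 0.162). The tallest were CFL1 (4213 PABPC4 and 10 HNRNPC tags), PFN1 (3961 and 19), IGFBP4 (3530 and 20), SNHG29 (1401 and 19) and the glycolytic enzyme gene ALDOA (992 and 8). Tall peaks were wider, which makes an overlap easier, so no test was made. By gene, an HNRNPC 3′ UTR peak was present in 36 of the 431 genes with a tall 3′ UTR peak (8.35%). In the 9138 other genes with a 3′ UTR peak the share was 3.44%. An HNRNPC peak anywhere in the gene was present in 44.3% and 33.3%. These shares were not tested either.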

How the data were processed

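PABPC4 was recovered from MDA-MB-231 cells by PAPERCLIP in 2 samples, and HNRNPC by a CLIP method in 2 others. The paper describes that method as irCLIP, whereas the deposited list names it HITS-CLIP. For HNRNPC the authors used UMI-tools, cutadapt, BWA 0.7.17 (hg38) and the CLIP Tool Kit. Separate processing of PABPC4 is not given in the sources used here. As deposited, the signal of a peak is its height in tags, pooled over both samples and not scaled. The deposited lists also gave a gene ID, an expected height and the authors' p-value, not tested again. Reads per library were not analysed here.

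Each position was counted once, which dropped 6271 surplus entries, and 33 tall peaks had several gene IDs. Peaks were placed by their centre with GENCODE 44, 3′ UTR first, then coding sequence, 5′ UTR, non-coding exon, intron, antisense and intergenic. Signals were sought in the 40 nt up to the peak's end on its strand, whatever its width, and A-rich stretches in the next 50 nt. An annotated end was that of any transcript on the strand within 25 nt. Shares were compared by two-sided Fisher's exact tests (SciPy 1.17.1), tested on simulated data, with 95% Wilson and Newcombe intervals and Benjamini-Hochberg adjustment over 8 tests. These cover counting error only. Members and gene lists were chosen with earlier results of these data known. Genes named were the 15 tallest, 3 on each side of the limit, the 3 tallest of each other feature, the 4 tallest of each list, and the 5 at each extreme of signal, A-rich sequence, annotated end, share and HNRNPC overlap, the genes with the most tall peaks, and the 3 widest and narrowest. Any other gene was named after its values were seen, and a few items that these rules select are not reported here. Alternatives were a limit of 250 or 1000 tags, other windows and hexamer sets, the tallest peak of each gene, and leaving out ribosomal protein genes.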

Additional observations from a re-analysis of the deposited data

How the results depend on the processing

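Of 120 recalculations, 112 kept the main value's direction and side of the threshold or stayed near it, and all 94 of tested differences did. Counting the tallest peak of each gene gave the smallest gaps for 6 of the 7 peak shares, 38.8 points for 3′ UTRs, 39.4 and 17.5 for the signal over all and 3′ UTR peaks, 44.6 and 17.6 for annotated ends, and -26.1 for A-rich sequence. With 6 A in a row alone, the A-rich gap in 3′ UTRs was -7.76 points. Counting peaks that end at an annotated end as 3′ UTR peaks, an alternative chosen after seeing the data like the other peaks of the same genes and the removal of positions under more than 1 gene ID, gave 61.4 points.

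The other 8 values moved. The median width was 140 nt at a limit of 1000 tags and 103 nt at 250. The median share in the tallest peak was 91.3% at 250 tags and 100% without peaks followed by A-rich sequence. The percent of genes with 90% in 1 peak was 69.3% at 1000 tags, 51.7% at 250, 76.8% without A-rich peaks, and 75.4% where a share of 80% was asked for. There were 190 tall peaks at a limit of 1000 tags and 1557 at 250. With the limit kept, their number ranged from 479 without ribosomal protein genes to 587 when every listed entry counted. No paired analysis was possible because each protein had 1 pooled list, and for the same reason leaving out a replicate was not run. Depth per library is unknown here, so a gene without a tall peak may be scarce or little bound.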

Other observations

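Of the 484 genes with a tall peak, 276 were in none of the lists. The 9 of these with the tallest peaks were ARHGDIA, TMBIM6 and IGFBP4, described above, then NT5E (3085 tags), the ectonucleotidase CD73, MGST1 (2914), a microsomal glutathione transferase, CTSD (2682), PPP4C (2511), a phosphatase catalytic subunit, MT2A (2215) and KDELR1 (2103), a receptor that returns proteins to the endoplasmic reticulum. All 9 peaks were centred in 3′ UTRs.

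Several genes whose mRNAs are abundant in most cultured cells were far from the limit, also named after their values were seen. The elongation factor EEF1A1 had a tallest peak of 17 tags, the thymosin TMSB4X 88, the chaperones HSPA5 and HSPA8 91 and 115, and the tubulin TUBB and B2M had no listed peak. The thymosin TMSB10 (6248 tags), the tubulin TUBA1B (6245) and another elongation factor, EEF2 (1957), were tall. How reads that match more than 1 place in the genome were treated is not given in the sources used here, and its part in these values was not tested, so a low or missing peak is not a measure of little binding.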
